A study of Homo sapiens with 8 samples.

Results

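Cassette exons of 400 nucleotides (nt) or more were taken from the deposited skipped-exon tables of MCF10A and HMLE TWIST cells by length alone, as exon end minus exon start. An event is a cassette exon with a given pair of flanking exons, so an exon can have several events. The MCF10A table held 2140 such events of 82355 (2.60%), on 1744 exons of 1514 genes. The HMLE TWIST table held 2517 of 98244 (2.56%), on 1972 exons of 1708 genes. Of the 2377 exons listed in either table, 1339 were listed in both. Events with at least 20 junction reads in every library of the line were analysed, 1792 in MCF10A (1484 exons, 1301 genes) and 2046 in HMLE TWIST (1658 exons, 1440 genes). The other 348 and 471 events fell under this minimum. Exons of POLR2C and POLM of 400 nt lay just inside the limit. Exons of WIZ, CLCN3 and FASTKD1, each 1 nt shorter, lay just outside it.

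Both lines are of human breast epithelial origin. MCF10A is a non-tumorigenic line for which the labels name no transgene, and HMLE TWIST is an immortalised line that overexpresses the transcription factor TWIST from an integrated pBabe retroviral vector. Each line was treated for 24 hours with the solvent DMSO, the control, or with 10 µM emetine, and each of the 4 groups had 2 libraries, called biological replicates in the series' design text. The series concerns small molecules that regulate splicing through RNA G-quadruplexes, folded structures of guanine-rich RNA. Setting emetine against its solvent asks which exons change in inclusion.

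Most internal exons of human genes are far shorter than these. Long internal exons often hold a large part of a protein in a stretch, as in the giant exons of ankyrins, SON or SRRM2, or carry a stop codon early in the exon. An exon of the latter kind, a poison exon, makes the transcript that contains it a target of nonsense-mediated decay, a pathway that depends on translation, and several splicing factors regulate their own levels in this way. Emetine is a plant alkaloid known as an inhibitor of translation.

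The early parts of 8 poison exons called in MCF10A are shown because the changes described for these genes lie in exons with an early stop codon. They were chosen after their values were seen. Each line runs 5′ to 3′ from the first base of the exon to its first in-frame stop codon, which is in capitals. Sequences and reading frames are those of GENCODE 29 transcripts annotated as decay targets, and positions are those of the deposited GRCh37 coordinates. The exons are those of SRSF3 (chr6:36567598-36568053, plus strand, 456 nt), SRSF7 (chr2:38976040-38976488, minus strand, 449 nt), SNRNP70 (chr19:49605371-49606844, plus strand, 1474 nt), ACIN1 (chr14:23536523-23537880, minus strand, 1358 nt), NADSYN1 (chr11:71187079-71188484, plus strand, 1406 nt), NSMCE1 (chr16:27252674-27253210, minus strand, 537 nt), CSNK1D (chr17:80207574-80208055, minus strand, 482 nt) and VPS26B (chr11:134106236-134106640, plus strand, 405 nt).
SRSF3: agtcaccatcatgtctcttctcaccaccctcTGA
SRSF7: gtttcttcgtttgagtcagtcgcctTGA
SNRNP70: ccaccacgcagctggcttgcagcTGA
ACIN1: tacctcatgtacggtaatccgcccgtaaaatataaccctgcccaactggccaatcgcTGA
NADSYN1: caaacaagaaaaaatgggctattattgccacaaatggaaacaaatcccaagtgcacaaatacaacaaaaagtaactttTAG
NSMCE1: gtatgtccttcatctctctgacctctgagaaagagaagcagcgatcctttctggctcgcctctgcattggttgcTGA
CSNK1D: gttgctgtctcggcttaaaatcTGA
VPS26B: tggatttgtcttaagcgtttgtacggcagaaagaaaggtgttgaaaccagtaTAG
The stop codon lay within the first 34 bases in SRSF3, 28 in SRSF7, 26 in SNRNP70 and 25 in CSNK1D, so that nearly all of these exons follows it. In ACIN1, NADSYN1, NSMCE1 and VPS26B it ended at base 60, 81, 77 and 55.

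Total junction reads, summed over events so that a read can count in several, ranged from 78412292 to 91259363 per library, and an analysed long-exon event had a median of 248 to 359 reads in a library. The epithelial label was checked by the reads of the deepest cassette event of each marker gene. In MCF10A, 6 of 9 epithelial markers had an event, with summed reads of 60564 to 62207 in the controls and 35708 to 36268 under emetine. In HMLE TWIST only 4 of the 9 had an event, with summed reads of 10 to 29 in the controls and 46 to 52 under emetine, and the defining markers CDH1, ESRP1 and ESRP2 had at most 9 reads in a library. KRT5 and KRT14 had no event there, and EPCAM, KRT18 and DSP had none in either line. All 9 mesenchymal markers had an event in HMLE TWIST, with summed reads of 352300 to 354022 in the controls and 179392 to 203813 under emetine, against 6 of 9 with 26783 to 30130 and 6454 to 6950 in MCF10A. In these bulk samples fewer cells of a type and less RNA per cell cannot be told apart, and the part of these marker levels in any difference between the lines was not tested.

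The inclusion level of an exon is the share of transcripts that hold it, estimated from junction reads corrected for the number of junctions each form has, and runs from 0 to 1. With the deepest event of each exon counted, long exons were mostly included in the controls. The median level was 0.994 in both lines. A level of 0.99 or more was found for 869 of 1484 exons in MCF10A (58.6%, against 59.4% of all analysed exons) and for 945 of 1658 in HMLE TWIST (57.0%, against 60.3%). Levels under 0.1 were found for 90 (6.06%, against 12.4% of all) and 100 (6.03%, against 11.1%). The annotation of the form with the exon differed between these ends. In MCF10A 28 of the 90 exons under 0.1 were decay targets and 13 coding throughout, while of the 869 at 0.99 or more 57 were decay targets and 426 coding. HMLE TWIST gave 31 decay targets and 17 coding exons of 100, and 65 and 454 of 945.

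Among the longest analysed exons both extremes occurred. The 7812 nt exon of ANK3 (chr10:61828395-61836206), the giant exon of ankyrin-G known from neurons, was listed at 0 in both MCF10A controls and in an emetine library and at 0.00488 in the other, on 103 to 141 reads. The exon of SRRM2, a scaffold protein of nuclear speckles (6701 nt), was at 1 in both controls and at 0.999 or more under emetine. SON, another speckle protein, had a 5916 nt exon at 0.997 in each MCF10A control and at 1 under emetine. ANKRD11 (6578 nt) and HIVEP1 (5981 nt) likewise stayed at 0.948 or more in every MCF10A library. In HMLE TWIST the longest analysed exons, of SPEN (8176 nt), the proliferation antigen MKI67 (6845 nt), PRUNE2 (6598 nt), ANKRD11 (6578 nt) and BOD1L1 (6139 nt), were at 0.926 or more in each library. The 5589 nt exon of NACA, which encodes the muscle form of this ribosome-associated protein, was chosen after its values were seen. It was at 0 in 3 MCF10A libraries and at 0.000138 in the other, beside 7869 to 10888 skipping reads per library.

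A change was tested where, in addition, whichever form was rarer, with or without the exon, reached 10 reads summed over the line's libraries. This left 588 events on 532 exons of 491 genes in MCF10A and 703 events on 631 exons of 574 genes in HMLE TWIST, since 1204 and 1343 analysed events were nearly always in the same form. Changes are given as emetine minus control, between group means, and an event was called where the adjusted p-value was under 0.05 and the absolute change at least 0.1. The p-values come from a quasi-binomial model, with limma on the log2 odds of inclusion as the alternative, both two-sided and adjusted over all events. Of the tested long-exon events 202 in MCF10A and 240 in HMLE TWIST had under 5 reads of the rarer form in a group, and 15 and 24 of these were called. Among the called events alone, replicates differed by a median SD of 0.0158 in the controls and 0.026 under emetine in MCF10A. The values in HMLE TWIST were 0.0205 and 0.025.

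In MCF10A 70 long-exon events were higher and 28 lower under emetine. These 98 calls were 16.7% of the events tested, on 92 exons of 87 genes, where 13.2% of all tested events were called. The share called higher was 11.9% (all events 7.92%) and the share called lower 4.76% (all events 5.24%). Rises had a median size of 0.193 and falls of -0.233, and 20 rises and 6 falls reached 0.3. The groups of no called event overlapped, which the call itself makes likely with 2 libraries a group. By limma 45 events were higher (all events 4.58%) and 20 lower (all events 3.3%), in all 65 (all events 7.88%), and 64 events were called by both methods. Without the emetine library listed as replicate 1 or 2 the quasi-binomial model called 0 events, with 119 and 136 long-exon events at an unadjusted p under 0.05, and it called 0 over all exons too. Without either control library it called 81 and 79.

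In HMLE TWIST 84 long-exon events were higher and 53 lower. These 137 calls were 19.5% of the events tested, on 128 exons of 121 genes, against 14.2% of all tested events. The share called higher was 11.9% (all events 6.15%) and the share called lower 7.54% (all events 8.06%). Rises had a median of 0.199 and falls of -0.191, with 16 rises and 13 falls of 0.3 or more. Again no called event had overlapping groups, which follows largely from the call itself. By limma 51 events were higher (all events 3.89%) and 44 lower (all events 6.06%), in all 95 (all events 9.94%), and 91 were called by both methods. Without the emetine library listed as replicate 1 or 2 the quasi-binomial model called 0 events here and over all exons, with 135 and 147 long-exon events at an unadjusted p under 0.05. Without the control replicates it called 96 and 90, the latter without replicate 2.

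**Figure D1:**
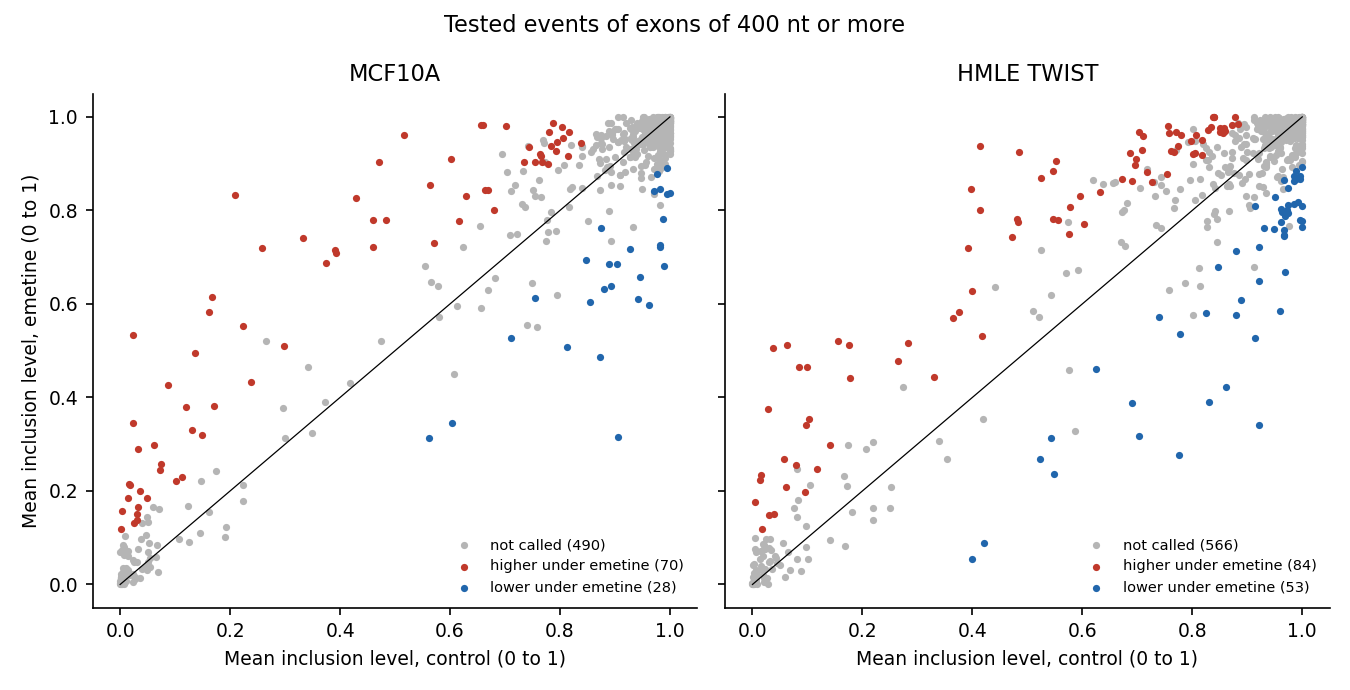
Mean inclusion level under emetine (y axis, 0 to 1) against the control (x axis, 0 to 1) for each tested event of an exon of 400 nt or more, in MCF10A (588 events) and HMLE TWIST (703 events). Red points were called higher (70 and 84) and blue points lower (28 and 53), grey points were not called, and the line marks equal levels.

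Among the called events, 71.4% were higher in MCF10A and 61.3% in HMLE TWIST, where over all exons the shares were 60.2% and 43.3%. Without the correction for the number of junctions the long-exon shares were 77.5% and 65.1% and those over all exons 70.5% and 53.3%. The authors' deposited table, taken at its false discovery rate below 0.05 and a difference of 0.1 or larger in size, listed 112 long-exon events higher under emetine and 47 lower in MCF10A and 140 and 90 in HMLE TWIST, of which 44 and 68 events lay under the read minimum used here. The share over all exons was not counted at these limits, so these counts do not show a trait of long exons. Every event called here had a rate under 0.05 in that table, which rests on the same reads.

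By length, the share of events called higher was largest from 600 nt up. In MCF10A it was 4.29% for exons of 27 nt or fewer, 10.4% in the class just under 400 nt, 10.7% from 400 to under 600 nt, 12.6% from there to under 1000 nt and 13.0% at 1000 nt or more. The HMLE TWIST shares for the same classes were 6.19%, 8.51%, 9.32%, 14.4% and 13.9%. Falls ran the other way for the shortest exons, with 15.5% and 13.6% of events of 27 nt or fewer called lower in MCF10A and HMLE TWIST. Among long exons the classes with falls were uneven, 5.16%, 4% and 4.97% in MCF10A and 9.01%, 3.85% and 9.25% in HMLE TWIST. These shares were described and not tested between classes.

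**Figure D2:**
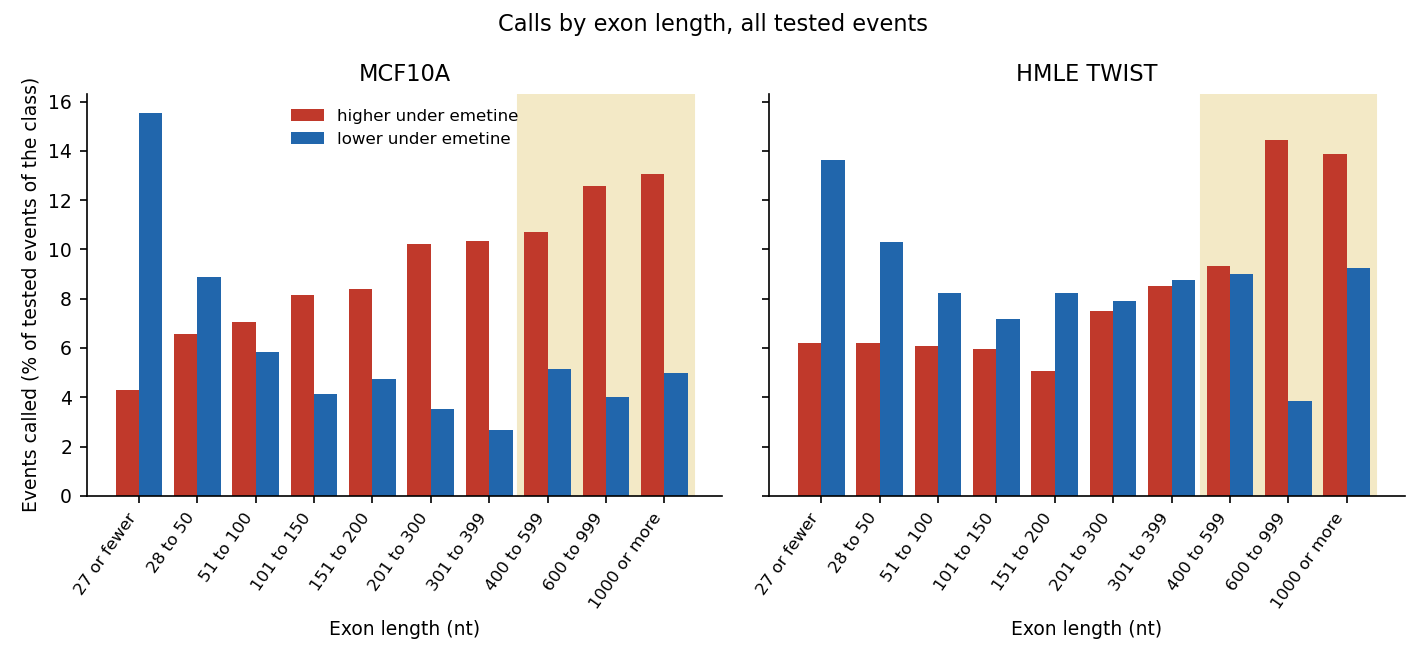
Percent of tested events called higher (red) and lower (blue) under emetine, by exon length in nt, in each line, over all tested events. The shaded classes are exons of 400 nt or more, where the share called higher was 10.7% to 13.0% in MCF10A and 9.32% to 14.4% in HMLE TWIST.

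An exon can rise by 0.1 only from below 0.9, so the calls were also set beside the control level. In MCF10A 18 of 78 long-exon events with a control level under 0.1 were higher (23.1%, all exons 15.4%), 23 of 42 at 0.1 to 0.5 (54.8%, all exons 31.0%) and 29 of 122 at 0.5 to 0.9 (23.8%, all exons 15.4%). In HMLE TWIST the counts were 16 of 82 (19.5%, all exons 11.3%), 21 of 42 (50%, all exons 25.8%) and 47 of 155 (30.3%, all exons 17.2%). From 0.9 up 16 of 346 MCF10A events were lower (4.62%, all exons 5.84%) and 35 of 424 HMLE TWIST events (8.25%, all exons 8.67%). At 0.5 to 0.9 the falls were 12 of 122 (9.84%, all exons 9.39%) and 16 of 155 (10.3%, all exons 13.0%). At 0.1 to 0.5 they were 0 of 42 in MCF10A (all exons 6.63%) and 2 of 42 in HMLE TWIST (4.76%, all exons 11.4%).

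Calls were also counted by annotation. Of 67 tested events whose form with the exon is a decay target in GENCODE 29, 20 were higher and 1 lower, with a median change of 0.0438 (all decay-target events 17.5% higher, 2.90% lower, median 0.0169). In 43 of them the form without the exon is coding, and of these 17 were higher and 0 lower by the quasi-binomial model (39.5% and 0%, all events of this kind 21.4% and 1.56%). The corresponding 77 events of HMLE TWIST gave 11 higher and 7 lower, with a median of 0.017 (all decay-target events 12.6% higher, 5.19% lower), and the 44 with a coding skipping form 9 higher and 2 lower (20.5% and 4.55%, all events of this kind 16.2% and 2.66%). Exons that are coding throughout gave 26 higher and 13 lower of 242 in MCF10A (10.7% higher, all coding events 4.07%) and 31 and 26 of 277 in HMLE TWIST (11.2% higher, all coding events 3.46%). Where the exon is coding and its skipping makes a decay target, 1 of 18 was higher and 3 lower in MCF10A (16.7% lower, all events of this kind 15.2%), and 0 of 15 higher and 5 lower in HMLE TWIST (33.3% lower, all events of this kind 21.5%). At like control levels the long decay-target exons were not called higher more often throughout. In MCF10A 10 of 24 decay-target and 3 of 8 coding events were higher from under 0.1 (41.7% and 37.5%), 5 of 9 and 10 of 15 from 0.1 to 0.5 (55.6% and 66.7%), and 5 of 12 and 13 of 43 from 0.5 to 0.9 (41.7% and 30.2%). The coding share was the larger in HMLE TWIST at each level, 37.5% against 26.9%, 70% (7 of 10) against 22.2% (2 of 9) and 30.5% against 18.2%. Over all exons the decay-target share was the larger at each of these levels in both lines. In MCF10A it was 20.8% against 10.3% for coding, 40.6% against 29.97% and 18.8% against 15.5%. The HMLE TWIST values over all exons were 15.4% against 6.70%, 31.9% against 25.25% and 17.3% against 16.9%. The difference between the classes was not tested.

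**Figure D3:**
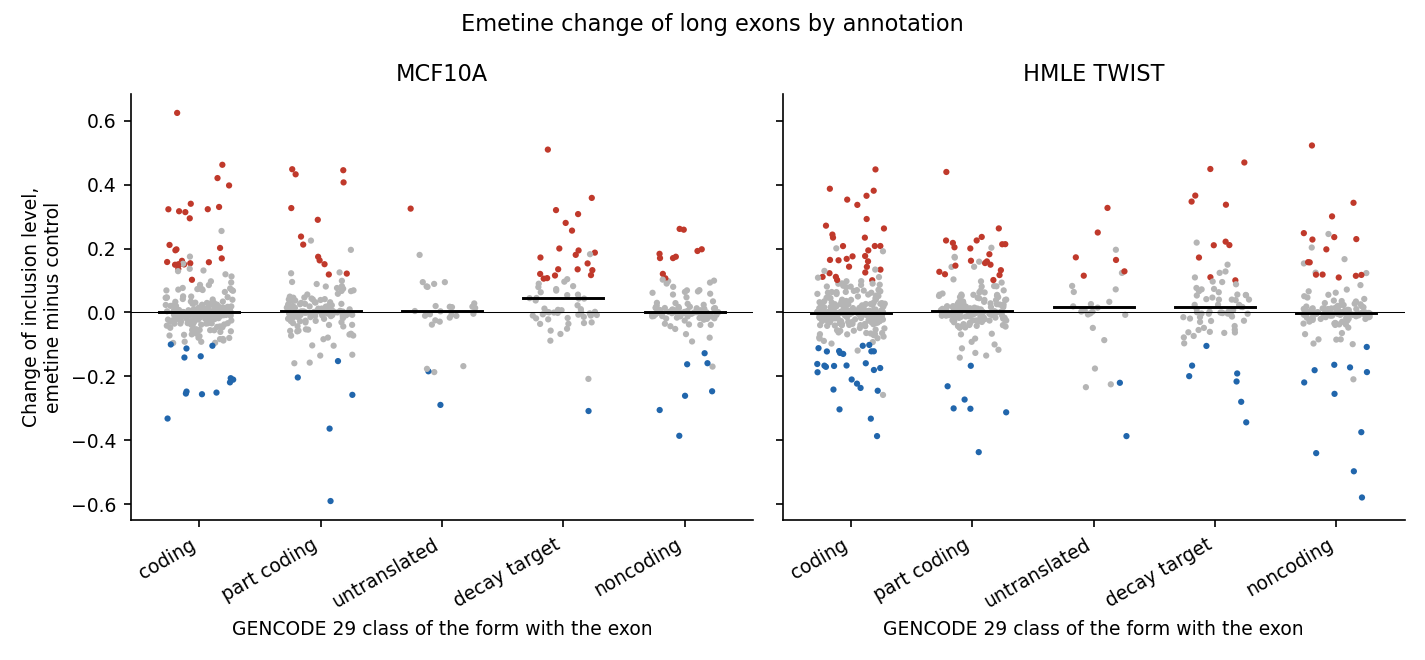
Change of inclusion level (emetine minus control) of each tested long-exon event by the GENCODE 29 class of the form with the exon, in each line, with the median as a bar. Points called higher are red and points called lower blue. The decay targets had medians of 0.0438 in MCF10A and 0.017 in HMLE TWIST.

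The 12 tested long-exon events of splicing regulators lay in 9 genes in MCF10A, and 6 were higher and 0 lower, with a median change of 0.0734 (all exons of the list, 48 higher and 18 lower of 306, median 0.00028). In HMLE TWIST 3 of 10 events were higher and 2 lower, with a median of 0.0295 (all exons of the list, 39 and 29 of 345). The 6 higher events of MCF10A lay in 5 genes, and the 2 lower ones of HMLE TWIST were overlapping RBM6 forms that share reads. SRSF3 is an SR protein that binds exonic enhancers, and its poison exon went from control levels of 0.0232 and 0.0238 to 0.589 and 0.478 in MCF10A. In HMLE TWIST it stood at 0.0329 and 0.0413 against 0.538 and 0.475. These were rises of 0.510 (adjusted p = 1.36e-08, limma 0.0145) and 0.469 (adjusted p = 5.95e-06, limma 0.0113), on at least 3510 and 3087 reads per library. Every emetine library lay far above every control library in both lines.

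The poison exon of SRSF7, the nearest relative of SRSF3 among the SR proteins, moved in MCF10A from 0.0271 and 0.0386 to 0.321 and 0.258, a rise of 0.256 (adjusted p = 2.22e-07, limma 0.016). Its HMLE TWIST levels were 0.0233 and 0.0323 against 0.419 and 0.331, a rise of 0.347 (adjusted p = 3.57e-05, limma 0.0115). SNRNP70, the U1-70K protein of the snRNP that recognises 5′ splice sites, had its exon at 0.0192 and 0.0164 against 0.251 and 0.173 in MCF10A, and at 0.00458 and 0.003 against 0.199 and 0.152 in HMLE TWIST. The groups were apart in both lines for both genes. ACIN1, a component of complexes on spliced RNA, moved from 0.0251 and 0.0264 to 0.146 and 0.117 in MCF10A (change 0.106, adjusted p = 4.11e-06). In HMLE TWIST it was at 0.0439 and 0.0247 against 0.0743 and 0.0716, a change of 0.0386 that did not reach the 0.1 required.

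Poison exons outside the splicing factors moved from similarly low levels. That of NADSYN1, the NAD synthetase, was at 0.0506 and 0.0485 against 0.212 and 0.157 in MCF10A and at 0.0631 and 0.0621 against 0.479 and 0.544 in HMLE TWIST. The rises were 0.135 (adjusted p = 0.000649) and 0.449 (adjusted p = 5.62e-05). For NSMCE1, a subunit of the SMC5/6 complex, levels went from 0.00298 and 0.00406 to 0.173 and 0.141 in MCF10A and from 0.016 and 0.0108 to 0.240 and 0.208 in HMLE TWIST, both called. CSNK1D, the casein kinase 1 delta gene, rose by 0.107 and 0.101. The VPS26B exon, in a gene of the retromer sorting complex, rose by 0.116 in MCF10A, and its change of 0.0952 in HMLE TWIST stayed under the threshold of 0.1.

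A few decay-target exons went down. The exon of GK5, a glycerol kinase family gene (1083 nt, chr3:141903553-141904635), went in HMLE TWIST from 0.394 and 0.404 to 0.0357 and 0.0741, a fall by 0.344 (adjusted p = 0.00256, at least 29 reads per library). FKBP10, a chaperone of collagen in the endoplasmic reticulum, had a 520 nt exon at 0.992 and 0.988 against 0.621 and 0.742 in MCF10A. It fell by 0.309 there and by 0.216 in HMLE TWIST.

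Cytoskeletal linker, motor and centrosome genes had 13 tested long-exon events in MCF10A, 3 higher and 1 lower, with a median change of 0.0109 (all exons of the list, 31 and 37 of 366). HMLE TWIST gave 4 higher and 1 lower of 19, with a median of 0.00403 (all exons, 30 and 49 of 425). The exons called are coding, that of PALLD in part. The 3384 nt exon of MAP4 (chr3:47950528-47953911), a microtubule-associated protein, rose in MCF10A from 0.0165 and 0.0171 to 0.202 and 0.227 (change 0.197, adjusted p = 1.71e-08, limma 0.0145). In HMLE TWIST it was at 0.00689 and 0.00732 against 0.0643 and 0.0728, a change of 0.0614 below the threshold of 0.1 (adjusted p = 1.63e-05). The 4755 nt exon of ASPM, a spindle pole protein (chr1:197069561-197074315), stood at 0.396 and 0.389 against 0.688 and 0.730 in MCF10A and at 0.629 and 0.636 against 0.798 and 0.883 in HMLE TWIST, rises of 0.317 and 0.208. Both groups were apart in both lines, although limma's adjusted p was 0.0744 for ASPM in HMLE TWIST.

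The exon of ENAH, an actin regulator (795 nt), rose by 0.136 in MCF10A and 0.176 in HMLE TWIST, with limma's adjusted p at 0.0599 and 0.145. Without the correction for junction number the ENAH change in MCF10A was 0.0810 and lost its call. In HMLE TWIST the long exon of MAP2, a neuronal microtubule protein (3714 nt), moved from 0.0312 and 0.0488 to 0.172 and 0.130 (change 0.111). PALLD, which bundles actin, had a change of 0.101 (limma 0.114) that became 0.0586 without the length correction. Plectin, the cytolinker encoded by PLEC, had a 3381 nt exon that fell from 0.892 and 0.868 to 0.593 and 0.672 in MCF10A and from 0.876 and 0.885 to 0.576 and 0.577 in HMLE TWIST. These falls by 0.248 and 0.303 rested on at least 2358 and 1771 reads per library.

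DNA repair and checkpoint genes had 6 tested events in MCF10A, 1 higher and 1 lower, and 15 in HMLE TWIST, 2 higher and 1 lower. Both MCF10A calls were events of the same UIMC1 exon. The median changes were 0.0482 and -0.0144 (all exons of the list, 29 and 20 of 263, and 20 and 45 of 394). MDC1 encodes a mediator that gathers repair proteins at double-strand breaks, and its 792 nt coding exon (chr6:30675343-30676134) went in HMLE TWIST from 0.406 and 0.389 to 0.826 and 0.864, a rise of 0.448 (adjusted p = 3.79e-05, limma 0.0146). In MCF10A the same exon was at 0.412 and 0.539 against 0.513 and 0.530, with overlapping groups and a change of 0.0460. The exon is shown because it is a coding long exon with a called rise and a G-run motif, defined as 4 runs of at least GGG with 1 to 7 bases between them. The line gives bases 667 to 732 of the exon in the GENCODE 29 transcript, on the minus strand of the chromosome, with the runs in capitals.
MDC1: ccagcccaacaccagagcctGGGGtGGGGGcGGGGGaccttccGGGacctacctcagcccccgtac

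UIMC1 encodes a subunit of the BRCA1-A complex that binds ubiquitin chains. Its 737 nt coding exon (chr5:176395556-176396292) gave opposite changes with different neighbours. With the nearer of its upstream exons it was at 0.948 and 0.937 against 0.569 and 0.652 in MCF10A, and at 0.915 and 0.913 against 0.495 and 0.559 in HMLE TWIST, falls by 0.332 and 0.387. With the more distant upstream exon it was at 0.816 and 0.817 against 0.956 and 0.978 in MCF10A and at 0.646 and 0.699 against 0.866 and 0.868 in HMLE TWIST, rises of 0.150 and 0.194. All 4 changes were called. An inclusion level thus belongs to the event, not to the exon alone.

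RBM6, an RNA-binding regulator of splicing, was called with different neighbours in the lines. With the nearer downstream exon its 1551 nt exon (chr3:50004631-50006181) was at 0.954 and 0.947 against 0.983 and 1 in MCF10A and at 0.926 and 0.933 against 0.815 and 0.710 in HMLE TWIST. The MCF10A change of 0.0409 was not called, and the HMLE TWIST change was a fall by 0.167 (adjusted p = 0.0205). With the downstream exon farther away, the same exon was at 0.0811 and 0.0412 against 0.325 and 0.273 in MCF10A, a rise of 0.238. The 1279 nt form, which shares the exon's end and most of its reads, moved alike, by 0.314 with the far exon in MCF10A and by -0.122 with the near exon in HMLE TWIST. WNK1, a kinase that controls ion transport, was added after its values were seen, since its 459 nt exon gave the largest rise in MCF10A, from 0.184 and 0.235 to 0.803 and 0.865. That event was not the deepest of the exon, and the deepest rose from 0.0241 and 0.0225 to 0.335 and 0.358.

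C2H2 zinc finger genes, which mostly encode DNA-binding repressors, had 5 higher and 0 lower of 23 tested long-exon events in MCF10A and 5 higher and 0 lower of 16 in HMLE TWIST by the quasi-binomial model. The median changes were 0.0145 and 0.0747 (all exons of these genes, 60 and 17 of 486 and 60 and 46 of 545). ZNF142, ZNF75D, ZNF707 and ZNF7 were higher in both lines, ZNF644 in MCF10A and ZNF550 in HMLE TWIST. By limma the adjusted p stayed over 0.05 for ZNF707 in both lines (0.0881 and 0.0625), ZNF7 (0.105) and ZNF644 (0.0818) in MCF10A and ZNF550 (0.0920) in HMLE TWIST. ZNF75D in HMLE TWIST had a quasi-binomial adjusted p of 0.0526 with its own dispersion, and its call was also lost with a dispersion shared by all events. With own dispersions the adjusted p was also over 0.05 for ZNF707 in both lines (0.157 and 0.0519). The same held in HMLE TWIST for ZNF142 (0.0981) and ZNF550 (0.159). ZNF75D was at 0.333 and 0.7 against 0.958 and 0.966 in MCF10A and at 0.75 and 0.657 against 0.933 and 1 in HMLE TWIST, on at least 32 and 23 reads per library. The ZNF142 exon went from 0.534 and 0.326 to 0.797 and 0.857 in MCF10A, a rise of 0.398 (adjusted p = 0.00062, limma 0.0442), and by 0.168 in HMLE TWIST (limma 0.179). The MCF10A control replicates of both genes differed widely, and reads of related zinc finger genes can be hard to assign.

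Chromatin regulators had 15 tested long-exon events in each line. By the quasi-binomial model 0 were called in MCF10A (median -0.000722, all exons of the list 47 higher and 29 lower of 404) and 1 in HMLE TWIST (all exons 47 higher and 44 lower of 448), in PHF3, a gene with a plant homeodomain. Its 1783 nt exon went from 0.873 and 0.882 to 1 in both emetine libraries, a change of 0.123 that was 0.0654 without the length correction. Translation and decay genes gave 0 calls of 5 in MCF10A (all exons of the list 14 higher and 9 lower of 265) and 1 of 6 in HMLE TWIST (all exons 13 and 19 of 296), the 421 nt exon of EEF1D, an elongation factor subunit, which fell by 0.172. Extracellular matrix and adhesion genes had 1 and 3 tested events with 0 calls by the quasi-binomial model, where over all exons 11 were higher and 9 lower of 233 in MCF10A and 15 and 15 of 244 in HMLE TWIST.

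Noncoding and antisense genes had 2 higher and 1 lower of 15 tested events in MCF10A and 5 higher, in 4 genes, and 2 lower of 15 in HMLE TWIST, with medians of 0.0136 and -0.00395 (all exons, 62 and 9 of 423 and 61 and 23 of 461). UBA6-AS1, transcribed from the strand opposite UBA6, had the largest rise of the HMLE TWIST long exons, from 0.387 and 0.443 to 0.928 and 0.947 (change 0.523, adjusted p = 0.0002, at least 44 reads). CD27-AS1 rose by 0.228, PVT1 by 0.109 and the readthrough locus STAG3L5P-PVRIG2P-PILRB by 0.157 in the same line, CD27-AS1 with a limma adjusted p of 0.112. In MCF10A CTC-459F4.3 rose by 0.198. LINC00963 rose by 0.192 with the farther upstream exon, while its deepest event, with the nearer one, had a change of 0.0136 that was not called. PDXDC2P, a pseudogene with near-identical copies, fell by 0.247 and 0.255 (limma 0.0926 and 0.0530), and RP11-262H14.3 fell by 0.108 in HMLE TWIST. Whether the counting used strand is not given in the sources used here, so values of antisense genes and of copied genes are uncertain.

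Outside these lists, several large rises of MCF10A lay in coding or partly coding exons. DEPDC1, a gene of mitotic cells, had an 852 nt exon at 0.293 and 0.222 against 0.764 and 0.675 (change 0.462, adjusted p = 2.94e-06, limma 0.024). CCDC88C, a regulator of Wnt signalling, moved from 0.164 and 0.169 to 0.593 and 0.638, and FASTKD3, a mitochondrial RNA protein, from 0.431 and 0.512 to 0.934 and 0.873. LRIF1, which binds the nuclear receptor RARA and heterochromatin proteins, stood at 0.203 and 0.119 against 0.611 and 0.552 in its 1528 nt exon. All of these groups were apart. MARCH8, TMEM180 and RWDD3 rose by 0.340, 0.330 and 0.327, the last on as few as 21 reads in a library. NOL8 rose by 0.359 in an exon annotated as a decay target.

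Falls in MCF10A were led by NFKBIZ, an inducible regulator of NF-kappaB target genes, whose 1026 nt exon holds a start codon and went from 1 and 0.812 to 0.357 and 0.275. It had at least 29 reads per library. Deeper coverage, at least 1227 reads, lay behind MATR3, an RNA-binding protein of the nuclear matrix, whose 1089 nt exon with the start codon was at 0.970 and 0.952 against 0.584 and 0.611 (change -0.364, adjusted p = 9.62e-08, limma 0.0145). With 3 other upstream exons the same exon had changes of 0.0206, 0.0407 and 0.0673, none called. AFTPH, involved in clathrin traffic, was at 0.861 and 0.884 against 0.508 and 0.465 in an exon of 1788 nt. That exon shares its start with a shorter listed exon of the gene and its end with another. The gap between such shorter exons is called an inferred intron here. The remaining falls among the largest 12, of FIGNL1, TUBGCP6, PREPL, SLTM and ANKS6, were by 0.251 to 0.289, with a limma adjusted p of 0.0749 for FIGNL1 and 0.0750 for PREPL. TUBGCP6, a gamma-tubulin complex protein, was called in 3 overlapping forms that share junction reads.

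In HMLE TWIST the long exon of SGOL1, the protector of centromeric cohesion (807 nt), rose from 0.462 and 0.366 to 0.791 and 0.812 (change 0.387, adjusted p = 0.000243, limma 0.0226). LRIF1 was at 0.0976 and 0.0701 against 0.513 and 0.417, LRR1 at 0.138 and 0.0603 against 0.508 and 0.421, and VWDE at 0.156 and 0.154 against 0.638 and 0.404. Rises of 0.301 to 0.343 were found for MICALL2 and for HMGN1, a nucleosome-binding protein. The largest fall, in DPY19L3, was from 0.953 and 0.887 to 0.234 and 0.448, on as few as 21 reads. MTERF4, a mitochondrial ribosome assembly factor, fell from 0.852 and 0.869 to 0.393 and 0.453, and MRPL55, a mitochondrial ribosomal protein, from 0.720 and 0.688 to 0.334 and 0.299. SLC12A4, a potassium chloride cotransporter, fell from 0.947 and 0.972 to 0.570 and 0.599. The exons of HMGN1, DPY19L3, MRPL55 and SLC12A4 contain an inferred intron, so skipping and retention of that intron can share reads. BCHE and THTPA fell by 0.313 and 0.301.

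The scaffold attachment factor family was noted after its values were seen. SAFB and SAFB2 each have a 511 nt coding exon and SLTM overlapping forms of 415 and 469 nt. SAFB was at 0.996 and 0.994 against 0.852 and 0.929 in MCF10A and at 0.986 and 0.984 against 0.845 and 0.902 in HMLE TWIST. SAFB2 fell by 0.137 and 0.187, and SLTM in its 415 nt form by 0.254 and 0.159. All 4 exons were called lower in both lines, but SAFB and SAFB2 are close paralogs and the 2 SLTM forms share reads.

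**Figure D4:**
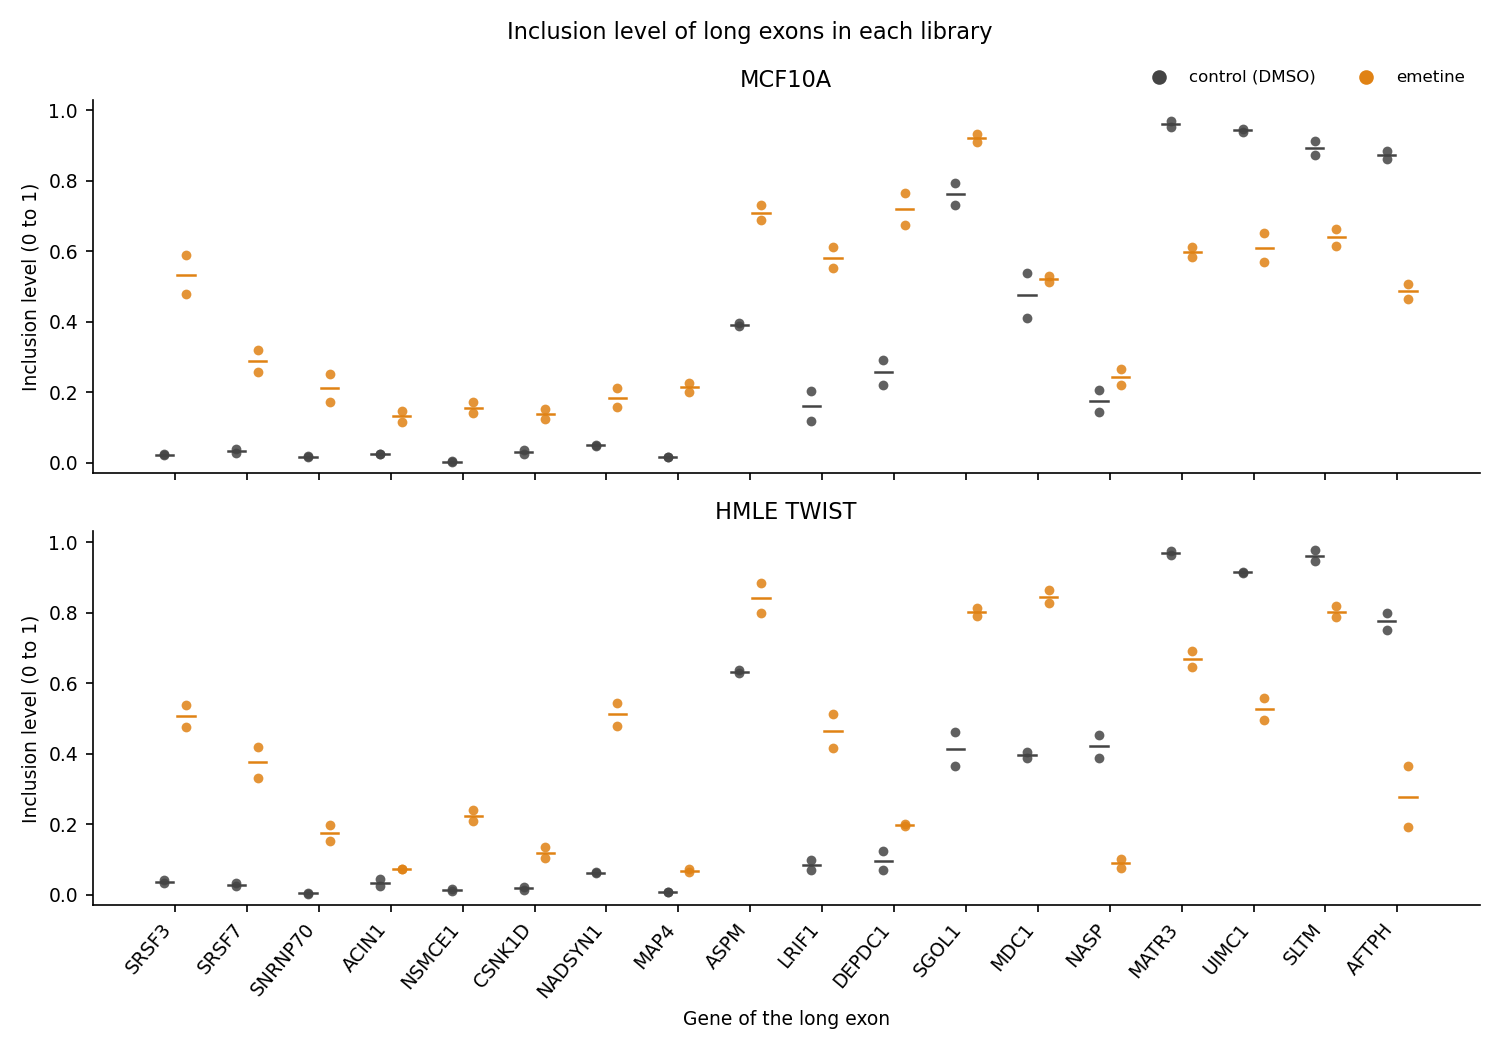
Inclusion level (y axis, 0 to 1) of 18 long exons in each library, controls in grey and emetine in orange, with the mean of the 2 libraries as a bar, in MCF10A (top) and HMLE TWIST (bottom). For a gene with several exons the deepest event of the exon with the largest change is drawn. SRSF3 lies between 0.0232 and 0.0413 in all controls and between 0.475 and 0.589 under emetine, and NASP is the only exon drawn whose mean moved up in MCF10A and down in HMLE TWIST.

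In both lines 449 long-exon events were tested. Of these, 84 were called in MCF10A and 111 in HMLE TWIST, and 58 in both, which is 69.0% of the former and 52.3% of the latter (all exons 59.6% and 49.6%). The 58 events lay on 53 exons of 50 genes, and all had the same sign, 36 higher and 22 lower, as had 1637 of the 1653 events called in both lines over all exons. Ranked by the smaller change of the lines, with the deepest event of each exon alone, they began with SRSF3, AFTPH, LRIF1, UIMC1, MATR3, TMEM180, ZNF75D and HMGN1. TMEM180 was at 0.597 and 0.347 against 0.766 and 0.722 in HMLE TWIST. Its adjusted p there was 0.115 by limma and 0.119 by the quasi-binomial model with its own dispersion. For HMGN1 in MCF10A limma's adjusted p was 0.0539. By annotation the events higher in both held 18 coding, 8 decay-target, 6 part coding, 3 noncoding exons and 1 untranslated exon. As a description, the changes of the lines correlated with r = 0.677 and rho = 0.655 over the 449 events (0.707 and 0.676 over all exons), events that share genes and libraries. The control levels correlated with r = 0.970.

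The line by treatment term called 23 of the 449 long-exon events, on 22 exons of 20 genes, where 2.73% of all events were called. The change was more positive in HMLE TWIST for 10 (all events 0.852%) and more negative for 13 (all events 1.88%; 5 and 12 without the length correction). In 16 of the 23 the changes of the lines had opposite signs, as in 304 of the 519 called over all events. These signs were counted whether or not the change in each line was itself called. The 58 long-exon events called in both lines all shared a sign. By limma 0 were called (all events 0%), with a smallest adjusted p of 0.112 and 73 long-exon events at an unadjusted p under 0.05, and with each event's own dispersion where larger 13 remained. The calls fell to 14 without MCF10A control replicate 2, 14 and 12 without MCF10A emetine replicates 1 and 2, and 12 and 10 without HMLE TWIST control replicates 1 and 2.

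The smallest adjusted p among these was that of NASP, a histone chaperone whose 1017 nt exon (chr1:46072993-46074009) marks its long form. It was at 0.205 and 0.144 against 0.265 and 0.220 in MCF10A and at 0.454 and 0.388 against 0.0753 and 0.102 in HMLE TWIST. The change of 0.0679 was not called and that of -0.332 was, and they differed by -0.400 (adjusted p = 3.51e-28, with own dispersion 2.21e-09, limma 0.112). MDC1 differed by 0.402 (adjusted p = 1.34e-12, limma 0.146). PRKRIP1, which acts with the spliceosome, had a 561 nt exon at 0.568 and 0.559 against 0.870 and 0.837 in MCF10A and at 0.825 and 0.856 against 0.810 and 0.786 in HMLE TWIST, a difference of -0.333. With a farther downstream exon it was higher in both lines, by 0.407 and 0.204. RPGR, a protein of the cilium, had changes of 0.129 and -0.258 in its 948 nt exon, neither called by itself, and the difference of -0.387 was called at an adjusted p of 0.015. ECHDC2 gave 0.0981 and -0.164, and RBM6 0.0409 and -0.167. DEPDC1 rose in both lines, by 0.462 and 0.101, and the difference of -0.362 was called.

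**Figure D5:**
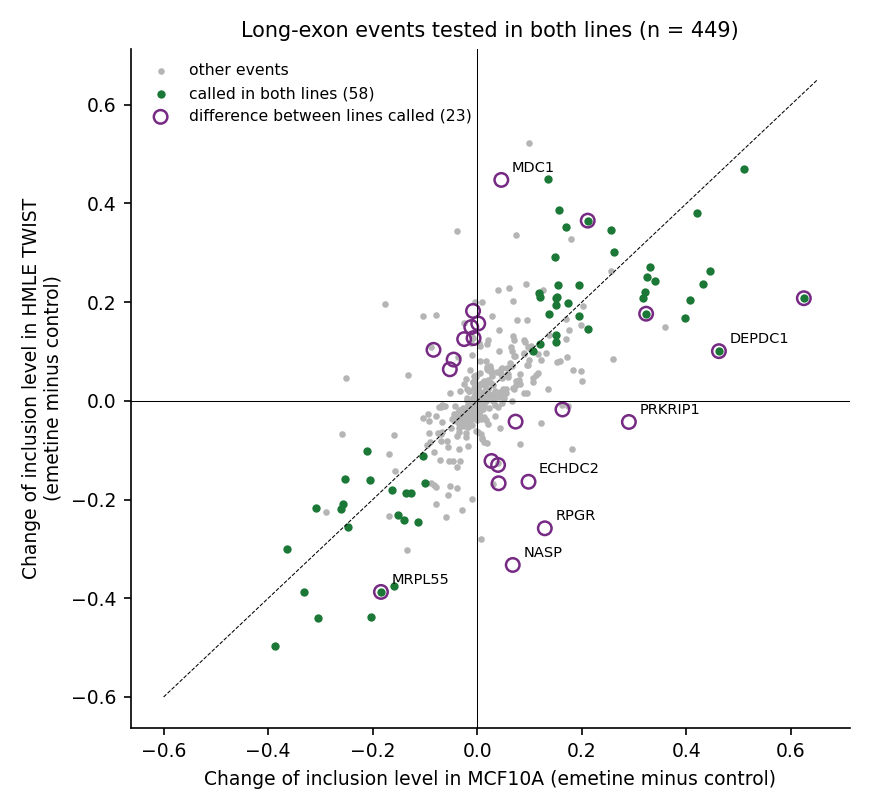
Change of inclusion level (emetine minus control) in HMLE TWIST (y axis) against MCF10A (x axis) for the 449 long-exon events tested in both lines. Filled green points (58) were called in both, rings (23) mark events whose change was called different between the lines, and the dashed line marks equal changes. The named rings include NASP, which moved by 0.0679 in MCF10A and -0.332 in HMLE TWIST.

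Control levels of the lines were compared over the same 449 events. Here 12 events were called, 4 higher in HMLE TWIST (all events 0.741%) and 8 lower (all events 1.26%; 6 and 6 without the length correction), where 2% of all events were called. By limma 0 were called (all events 0%), with 111 at an unadjusted p under 0.05, and without any of the 4 control libraries 0 were called by the quasi-binomial model, with 49 to 64 at that level. NASP was 0.246 higher and PRKRIP1 0.277 higher in HMLE TWIST, ASPM 0.240 higher and KLHL8 0.337 higher. The differences were -0.349 for SGOL1, -0.263 for RPAIN, -0.236 for STEAP3, -0.209 for INO80E and -0.193 for ENAH. The other 3 were NUBP2, CD99L2 and YTHDF2, with differences of -0.135, -0.130 and -0.123. The lines also differ in the marker reads given above.

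Structural features of the tested exons were described without a test, with the deepest event of each exon counted. Lower exons had shorter neighbouring introns. In MCF10A the median upstream and downstream intron of the 26 lower exons was 927 and 762.5 nt, against 3119 and 2836 nt for 437 exons not called and 2222 and 1305 nt for 55 higher exons. In HMLE TWIST the medians were 1158.5 and 1537.5 nt for 50 lower exons, 2595 and 2394 nt for 495 not called and 2496.5 and 2280.5 nt for 64 higher ones. Over all exons the lower ones also had the shorter introns, 1174 and 1174 nt in MCF10A against 2262 and 2160 nt for those not called. Median length was 687 nt for higher and 636.5 nt for lower exons in MCF10A and 790 and 581.5 nt in HMLE TWIST. Of the tested long-exon events 38.4% in MCF10A and 39.4% in HMLE TWIST had a length divisible by 3. These shares were near the 39.1% and 38.1% of all events. In 14.6% and 18.2% of the tested long-exon events the exon contained an inferred intron, as defined above. Skipping and retention of that intron can then share reads. Named exons with an inferred intron included those of AFTPH, HMGN1, DPY19L3, MRPL55, SLC12A4, ZNF7, STAG3L5P-PVRIG2P-PILRB, RPGR and ECHDC2 and the 1551 nt exon of RBM6.

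The G-run motif defined above, searched on the RNA strand alone, was present in 29 of 515 tested long exons with sequence in MCF10A (5.63%, all tested exons 0.416%) and in 42 of 606 in HMLE TWIST (6.93%, all tested exons 0.531%). Longer exons offer more bases in which to find it. By direction, 2 of 55 higher (3.64%), 1 of 26 lower (3.85%) and 26 of 434 exons not called (5.99%) held it in MCF10A. In HMLE TWIST the counts were 9 of 64 (14.1%), 3 of 50 (6%) and 30 of 492 (6.10%). The higher ones there included MDC1, MICALL2, CUL5, RTKN, SNRNP70 and SPHK2. Over all exons the shares for higher, lower and uncalled exons were 0.497%, 0.456% and 0.407% in MCF10A. The HMLE TWIST shares over all exons were 1.006%, 0.922% and 0.461%. Runs of GGG or longer had a median density of 9.86 per kb in higher, 13.6 in lower and 11.9 in uncalled exons of MCF10A and of 13.1, 14.2 and 11.9 in HMLE TWIST. Over all exons the densities were 8.44, 10.9 and 9.52 in MCF10A and 8.20, 12.3 and 10 in HMLE TWIST. A match to these letters does not show that a G-quadruplex forms.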

How the data were processed

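RNA of 8 libraries was sequenced as paired, stranded poly(A) libraries per the labels' protocols. The submitters' processing notes name GRCh37 and STAR 2.5.3a; the version of rMATS, the annotation and any use of strand in counting are not given in the sources used here. The deposited tables, 1 per line, give per event the authors' counts of inclusion and skipping junction reads, both libraries of a group joined in a cell, and effective lengths (198 and 99 nt for long exons). They also give the authors' rMATS p-value, FDR and level difference, per the file headers. The tables call the groups sample 1 and sample 2, which were read as control and emetine after the order in the table names, and the library listed first was called replicate 1. The tables list only events with reads for both forms.

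Levels were computed from the deposited counts and lengths. Changes were tested in logistic models with quasi-binomial errors, the dispersion moderated along the reads of the rarer form by limma's squeezeVar and floored at 1, and Benjamini-Hochberg adjustment over all tested events (R 4.3.3, limma 3.58.1, Python 3.11.15). The fit was checked on simulated data. Total junction reads were 78412292 to 91259363 per library. Alternatives covered the read minimum, the rarer-form filter, limma on log2 odds with 0.5 added, the dispersion, the length correction, thresholds and left-out libraries.

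Of 3198 long events, 3094 were matched to GENCODE 29 by gene, exon length and at least 1 flanking intron length, which gave sequence and coding class. Named exons were, in each line, the 12 largest called rises and falls, called members of the gene lists, the first 8 called in both lines, the first 5 with opposite changes and called interaction, and the 5 longest; others are said to be chosen after their values were seen. Each exon was named by its deepest event. The members, lists and rules were chosen with earlier results of these data known.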

Additional observations from a re-analysis of the deposited data

Results flagged for a closer look

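The 20 exons below had a change under emetine that differed between the lines by the line by treatment term of the quasi-binomial model (adjusted p under 0.05 and a difference of at least 0.1); limma called 0 of them, with 73 long-exon events at an unadjusted p under 0.05. Values are the change in HMLE TWIST minus that in MCF10A for the deepest event of each exon. The change was more negative in HMLE TWIST for NASP (-0.400), RPGR (-0.387), DEPDC1 (-0.362), PRKRIP1 (-0.333), ECHDC2 (-0.262), MRPL55 (-0.203), TRMO (-0.180) and SENP6 (-0.170). RBM6 had -0.208 for its 1551 nt exon and -0.149 for the 1279 nt form that shares its reads, and WNK1 -0.146 for the 459 nt and -0.115 for the 1239 nt exon. It was more positive for MDC1 (0.402), ZHX1 (0.190), TMEM168 (0.187), ARL14EP (0.161), STAG3L5P-PVRIG2P-PILRB (0.155), LRR1 (0.154), PRRC2B (0.150) and NDUFV3 (0.129). DEPDC1 rose in both lines, by 0.462 and 0.101, as did LRR1, by 0.211 and 0.365, while MRPL55 fell by 0.184 and 0.387.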

How the results depend on the processing

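Without the length correction and without single libraries, which can change the size of a change, no named exon changed sign. The other settings keep the change and alter only its test. Of 85 pairs of a named exon and a line, 79 lost their call with the replicate block, 19 by limma, 9 without the length correction and 8 with their own dispersion. The 6 pairs that the replicate block left the same had no call in the main fit. With the replicate block, whose numbers did not pair the samples (r of deviations 0.0177 and 0.00667), 0 long-exon events were called in MCF10A, in HMLE TWIST and for the difference between lines, against 98, 137 and 23, with 116, 135 and 59 at an unadjusted p under 0.05. limma called 65 in MCF10A, 0 for the difference between lines and 0 of 12 between the controls. A change of 0.2 or more left 49, 67 and 9. Exons of 300 nt or more gave 210 in HMLE TWIST and 21 between the controls. Own dispersions left 13 for the difference between lines, a dispersion shared by all events, added after the data were seen, gave 42 between the controls, and without the rarer-form filter 0 were called there (130 at an unadjusted p under 0.05). Leaving out 1 library gave 0 to 81 calls in MCF10A, 0 to 96 in HMLE TWIST, 10 to 22 for the difference between lines and 0 to 0 between the controls. The cause was not tested. Other counts were within 1.5 times the values reported. A planned count model from another package was not run. With 2 libraries a group, small shifts of rarely read forms were not detectable.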
